A study of Homo sapiens with 3 samples.

Results

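HA-PSF-TFE3 binding at the 7 genes JUN, JUNB, JUND, FOS, FOSL1, FOSL2 and ATF3, which encode subunits of the transcription factor AP-1, was taken from 2 lists of peak summits. The members were chosen by position. A summit belonged to a gene if it lay in a window that covered the gene with flanks of about 10 kb. The 7 windows spanned 236 kb and held 35 of the 44983 summits in replicate 8 and 11 of the 28084 in replicate 9. A summit is the base with the highest enrichment in a peak, and its score is the −log10 of the q-value that the authors' peak caller gave it.

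The lists came from ChIP-seq (chromatin immunoprecipitation with sequencing), which recovers and sequences the DNA that a protein holds. The protein was a fusion of PSF, also named SFPQ, to the transcription factor TFE3, with an HA tag that the antibody matrix recognised. It was expressed in HK-2 cells, an established human line of proximal tubule epithelium, from a construct switched on with 0.2 µg/ml doxycycline for 24 h. The group HA-PSF-TFE3 ChIP held 2 libraries, replicates 8 and 9, each of which the study describes as an independent clone, and the group input DNA held 1 library, which the authors used as the background of peak calling. All 3 libraries came from cells that carried the inducible HA-PSF-TFE3 construct and received doxycycline, so cells without the fusion were not compared. Each line was 1 clone, and a difference between replicates cannot be told apart from one between clones. The series' design text names PRCC-TFE3 where its title and sample labels name PSF-TFE3, and the labels were followed. With 1 group and 2 lists there was no test between conditions, and values are given for each library.

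AP-1 is a dimer of proteins with a basic leucine zipper. Members of the Jun family (JUN, JUNB, JUND) can pair with each other or with members of the Fos family (FOS, FOSL1, FOSL2) or the ATF family (here ATF3), and Fos proteins need a Jun partner to bind DNA stably. The dimers read the near-palindrome TGACTCA, and several of the genes, FOS, JUN, JUNB and ATF3 among them, are induced within minutes by growth factors or stress. TFE3 has a different fold, a basic helix-loop-helix leucine zipper, and binds E-boxes such as CACGTG or CATGTG. The comparison asked which sites at the genes for AP-1 subunits the fusion occupied, and which of them were found in both clones.

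Summits lay at all 7 genes in replicate 8 and at 6 of 7 in replicate 9, in which FOS had none. For comparison, windows of the same width laid end to end over all chromosomes held at least 1 summit in 18.7% (21 kb wide) to 41.7% (75 kb wide) of cases in replicate 8 and in 13.5% to 33.3% in replicate 9. These background windows include gene-poor sequence and assembly gaps. In the 7 windows there were 14.8 summits per 100 kb in replicate 8 (95% Poisson interval 10.3 to 20.6) and 4.66 in replicate 9 (95% Poisson interval 2.33 to 8.34). The whole lists had 1.52 and 0.946 per 100 kb. The density at AP-1 genes was therefore 9.79 and 4.93 times that of the whole list. In the 10 kb on both sides of the windows the density was 11.4 and 8.57 per 100 kb. A density above that of the list was thus not limited to the windows, and in replicate 9 it was higher outside them. The intervals cover counting error alone, and neighbouring summits are not independent.

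The libraries differed more at these genes than over the genome. The mean number of summits was 23 ± 17.0 (SD, n = 2), and replicate 8 had 3.18 times as many as replicate 9, whereas its whole list was 1.60 times as long. Leaving out the JUNB window, which was chosen for this after its count was seen, gave 26 and 10 summits, a ratio of 2.60. The excess shrank as the minimum score rose. With a score of at least 5 there were 22 and 9 summits, a ratio of 2.44, beside 1.41 for the whole lists. With a score of at least 10 there were 9 and 6 summits, a ratio of 1.50, beside 1.29 for the whole lists. With a score of at least 20 there were 2 summits in replicate 8 and 5 in replicate 9, beside 7917 and 7704 in the whole lists. Counts of 2 and 5 are too small to order the libraries.

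**Figure D1:**
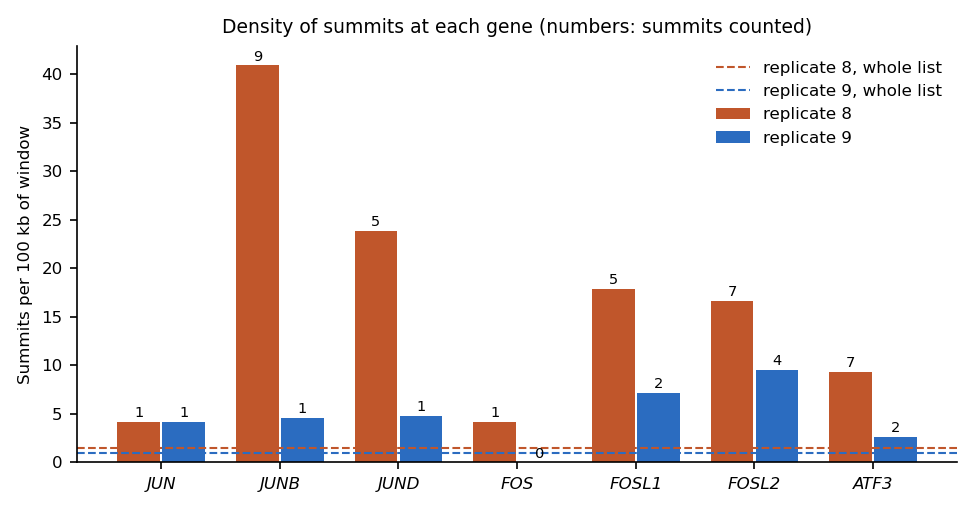
Summits per 100 kb of window (vertical axis) at each AP-1 gene in replicate 8 (orange bars) and replicate 9 (blue bars), with the number of summits counted above each bar and the density of each whole list as a dashed line of the same colour. JUNB has the tallest bar, with 9 summits in replicate 8 against 1 in replicate 9, and FOS has no summit in replicate 9.

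Sites found in both clones were counted as summits with one of the other list within 200 bp. This held for 8 of 35 summits in replicate 8 (22.9%, 95% Wilson interval 12.1 to 39.0%), beside 47.9% of its whole list. In replicate 9 it held for 8 of 11 (72.7%, 95% Wilson interval 43.4 to 90.3%), beside 76.6% of its whole list. The replicate 8 share was below that of its list, and the interval of the replicate 9 share held that of its list. With a minimum score of 5 in both lists the replicate 8 share was 6 of 22 (27.3%, 95% Wilson interval 13.2 to 48.2%). The whole list had 54.4%. All Wilson intervals given here treat summits as independent, which neighbouring summits are not. They are therefore too narrow to decide whether a share differs from that of its list. Without the JUNB window and at any score, the replicate 8 share was 26.9%. With a minimum score of 10 in both lists the replicate 8 share was 4 of 9 (44.4%, 95% Wilson interval 18.9 to 73.3%), beside 58.8% of the whole list, which lies within that wider interval. The 8 shared sites fell at 5 genes, with 1 each at JUNB and JUND and 2 each at FOSL1, FOSL2 and ATF3. JUN and FOS had none.

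The shared sites were placed closely. Their summits were 2 to 51 bp apart in both libraries, with a median of 18 bp, whereas the median over the 21536 shared summits of the whole replicate 8 list was 52 bp. The score was higher in replicate 9 at 7 of the 8 sites, beside 46.5% of all shared summits, and the exception was JUNB. The percentile of a score within its own list, which does not depend on the scale of either library, was higher in replicate 9 at 4 of the 8 sites, beside 25.6% of all shared summits. In replicate 8 the 8 shared summits had a median score of 11.7, and the 27 others had a median of 5.70. In replicate 9 these medians were 20.1 for the 8 shared summits and 1.96 for the 3 others.

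**Figure D2:**
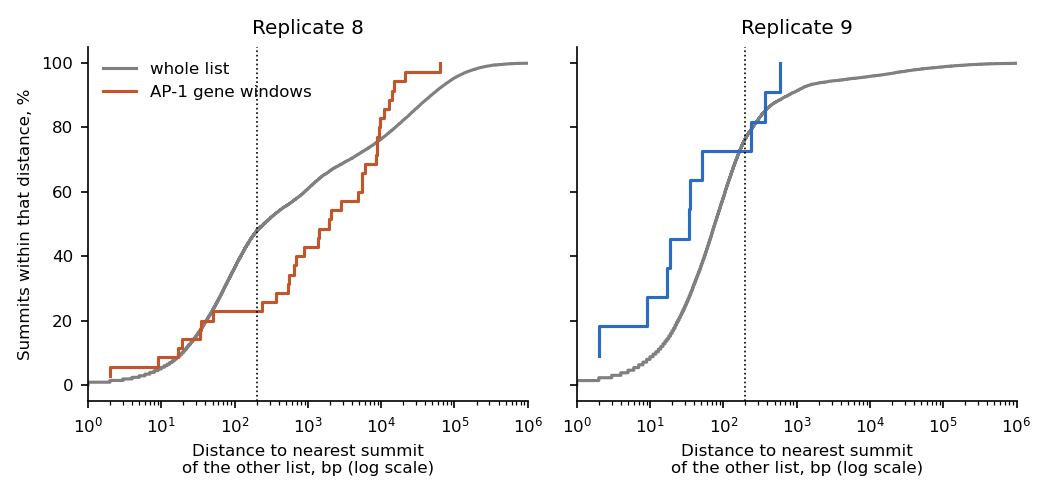
Cumulative share of summits (vertical axis, percent) by distance to the nearest summit of the other list (horizontal axis, bp, log scale, with 0 drawn at 1) for the AP-1 gene windows (coloured) and the whole list (grey), in replicate 8 on the left and replicate 9 on the right. The dotted line marks 200 bp, where the replicate 8 curve for AP-1 genes stands at 22.9% and the grey curve at 47.9%.

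Many replicate 8 summits had no replicate 9 summit anywhere near. At AP-1 genes 14 of 35 replicate 8 summits (40%) were more than 5 kb from any replicate 9 summit, beside 28.2% of the whole list. Many of them belonged to the run of summits at JUNB, 5.50 to 10.98 kb from the nearest replicate 9 summit. The share thus leans on that window, and no interval was computed for it. All 11 replicate 9 summits had a replicate 8 summit within 1 kb, beside 91.3% of the whole list. With only 11 summits, that share is near the share of the whole list.

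Each gene is described below with its place. Window edges are given in kb on hg19, the build taken for the lists, and are rounded to 1 kb. Distances from a gene's start follow from its window, with the strand from GENCODE, and are good to about 1 kb. Whether a summit within 1 kb of an exon was exonic or intronic cannot be told at that precision. Positions of summits are exact.

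FOSL1 had no promoter sequence to search. In the sequences given for the 6 other genes, only those of FOSL2 and JUND held a motif. Promoter sequences are shown for these and for JUN, which with FOSL2 had the summits closest to the gene start in both libraries. They run from 250 bases before to 50 bases after the RefSeq start, 5′ to 3′ on the gene's strand, on GRCh38.p14 and not on hg19: FOSL2 at chr2:28392608-28392907 (plus strand), JUN at chr1:58783998-58784297 (minus strand) and JUND at chr19:18281573-18281872 (minus strand). Capitals mark exact matches to TGACTCA (AP-1 site), to TGACGTC (most of the cyclic AMP response element) and to the E-boxes CACGTG and CATGTG, each on both strands. Near matches were not searched, so an unmarked sequence may still hold related elements.
FOSL2: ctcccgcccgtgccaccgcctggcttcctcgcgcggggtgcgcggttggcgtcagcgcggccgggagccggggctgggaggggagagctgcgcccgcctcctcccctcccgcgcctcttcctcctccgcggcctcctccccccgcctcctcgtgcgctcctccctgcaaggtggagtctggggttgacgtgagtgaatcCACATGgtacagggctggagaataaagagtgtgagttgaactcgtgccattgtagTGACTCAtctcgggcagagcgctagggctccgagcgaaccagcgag
JUN: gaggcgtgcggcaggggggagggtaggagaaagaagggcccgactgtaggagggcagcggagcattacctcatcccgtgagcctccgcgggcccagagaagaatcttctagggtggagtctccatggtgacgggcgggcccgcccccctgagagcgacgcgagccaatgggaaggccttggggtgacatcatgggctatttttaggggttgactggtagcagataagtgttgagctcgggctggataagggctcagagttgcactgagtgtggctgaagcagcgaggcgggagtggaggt
JUND: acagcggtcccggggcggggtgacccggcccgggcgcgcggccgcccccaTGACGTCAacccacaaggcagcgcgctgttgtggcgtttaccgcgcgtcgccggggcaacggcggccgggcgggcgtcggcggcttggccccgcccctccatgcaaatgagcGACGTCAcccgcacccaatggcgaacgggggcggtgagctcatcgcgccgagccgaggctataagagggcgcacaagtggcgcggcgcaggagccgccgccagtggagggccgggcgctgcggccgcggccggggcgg

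The FOSL2 promoter held both an AP-1 site, beginning at base 5 with the start counted as 1, and the E-box CATGTG, read as CACATG on this strand from 51 bases before the start. The JUND promoter held GACGTCA at 199 and at 88 bases before the start. The former overlaps a TGACGTC that begins 200 bases before the start, and together they read TGACGTCA. Neither CACGTG nor its longer form TCACGTG was in the 7 promoter sequences that RefSeq gave for 6 of the genes (ATF3 has a pair of entries). The ATF3 entries do not cover the start of its MANE Select transcript, described below, so the promoter there was not searched. Of all 35116 promoter sequences of the same length, 4.95% held the AP-1 site, 3.45% TGACGTC, 11.1% CATGTG, 7.26% CACGTG and 3.71% TCACGTG. At 68.7% the G and C content of the FOSL2 sequence was above the median of 58.7% over all promoters, as was that of JUND at 77.0% and of JUN at 62.0%. A match is a description of these letters, and the sequence under the summits was not read.

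FOSL2, which encodes the Fos family protein FRA-2, had the shared site with the best rank in replicate 9 and the second best in replicate 8, after that of JUNB. Its window ran from 28606 to 28648 kb of chromosome 2. Replicate 8 had 7 summits there and replicate 9 had 4. Windows of 42 kb held at least 1 summit in 30% of cases in replicate 8, 22.8% in replicate 9 and 21.6% in both. Counts as high as those at FOSL2 in both libraries occurred in 0.581%.

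The better-ranked of its 2 shared sites lay about 16.1 kb into the gene, at 28632112 in replicate 8 with a score of 30.1 and at 28632163 in replicate 9 with a score of 40.6. These scores stood at the 92.9 and 90.7 percentiles. A second site lay at the gene start, within the precision of the windows, at 28615826 in replicate 8 and 28615835 in replicate 9. Its summits were 9 bp apart and had scores of 18.0 and 20.2, at the 79.4 and 73.0 percentiles. This is the gene whose promoter, printed above, held both the AP-1 site and an E-box. Whether the summits lay on either motif was not tested. The other 5 replicate 8 summits had scores of 4.02 to 9.86, the highest of them at 28631614, and lay from 2.7 kb before the start to 15.6 kb into the gene. The other 2 replicate 9 summits, at 28615239 with a score of 5.91 and at 28630167 with a score of 1.96, had replicate 8 summits 587 and 366 bp away.

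FOSL1 encodes FRA-1, a Fos family member that is often high in carcinoma lines. Its window ran from 65650 to 65678 kb of chromosome 11 and also takes in FIBP and CCDC85B and a part of CTSW, as RefSeq places them. There were 5 summits in replicate 8 and 2 in replicate 9. Windows of 28 kb held at least 1 summit in 23% of cases in replicate 8, 16.9% in replicate 9 and 16% in both. Both replicate 9 summits were shared.

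The stronger FOSL1 site lay about 2.6 kb before the gene, with its summits 2 bp apart at 65670628 and 65670626. Its score was 8.01 in replicate 8 and 27.7 in replicate 9, at the 49.4 and 82.0 percentiles. The weaker site, about 1.0 kb into the gene at 65666961 and 65666980, had scores of 3.83 and 5.73, at the 14.7 and 23.9 percentiles. Of the 3 summits found in replicate 8 alone, the highest scored 5.18 and lay at 65669974, between the site before the gene and its start. One further replicate 8 summit, at 65658157 with a score of 4.39, lay beyond the end of FOSL1, within 1 kb of where RefSeq places CCDC85B.

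FOS, the prototype immediate early gene, had 1 summit in all. Its window ran from 75735 to 75759 kb of chromosome 14. The summit was in replicate 8 alone, at 75744053, about 0.9 kb before the gene start, with a score of 12.9 at the 68.2 percentile. The nearest replicate 9 summit was 63.9 kb away. Replicate 9 had no summit from 54.9 kb before the window to 108 kb beyond it. Windows of 24 kb held at least 1 summit in 20.6% of cases in replicate 8, 15.1% in replicate 9 and 14.2% in both. A summit that is missing from a list did not pass the authors' threshold there, which does not show that the site was unbound.

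The Fos family together had 13 summits in replicate 8 and 6 in replicate 9, or 13.8 and 6.38 per 100 kb. Of these, 4 sites were shared. All 4 were at FOSL1 and FOSL2.

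JUN, which encodes c-Jun, had 1 summit in each library in a window from 59236 to 59260 kb of chromosome 1. Both lay at the gene start within the precision of the windows. The replicate 8 summit at 59250157 had a score of 10.3 at the 59.5 percentile, and the replicate 9 summit at 59249918 had a score of 1.92 at the 0.547 percentile. They were 239 bp apart, and were therefore not counted as shared within 200 bp but were within 500 bp. At least 1 summit was found in 20.6% of 24-kb windows in replicate 8, in 15.1% in replicate 9 and in 14.2% in both.

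JUNB had the densest run of summits in replicate 8. JUNB pairs with Fos proteins and in many settings counters c-Jun. In its window from 12892 to 12914 kb of chromosome 19, replicate 8 had 9 summits over 11.02 kb, at a median spacing of 759 bp, and replicate 9 had 1. Windows of 22 kb held at least 1 summit in 19.3% of cases in replicate 8, 14.1% in replicate 9 and 13.2% in both. At least 9 replicate 8 summits occurred in 39 of 138980 windows (0.0281%), 1 of which was the JUNB window itself. The other 38 had a median of 5.5 replicate 9 summits and a lowest count of 2.

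The one JUNB site found in both clones was also the strongest at any AP-1 gene in replicate 8. It lay about 8.2 kb before the gene, at 12893843 with a score of 33.1 in replicate 8 and at 12893877 with a score of 20.04 in replicate 9. The percentiles were 94.4 and 72.6. RefSeq extends HOOK2, a neighbouring gene, over this stretch. The 8 summits found in replicate 8 alone had scores from 3.20 to 12.5, the highest at 12894409, 566 bp from the shared site. Next to that came 12895297, 6.7 kb before the gene, with a score of 8.92. A further 2 lay 2.1 to 2.6 kb before the gene, with scores of 5.09 and 9.16, and 3 within its single exon or within 1 kb of its ends, at 12902534, 12903164 and 12903567, with scores of 3.20, 7.96 and 6.03. The last lay 2.9 kb after the start, with a score of 9.18.

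JUND, the Jun gene that most cells express steadily, showed the same order of counts. Its window ran from 18381 to 18402 kb of chromosome 19, with 5 summits in replicate 8 and 1 in replicate 9. Windows of 21 kb held at least 1 summit in 18.7% of cases in replicate 8, 13.5% in replicate 9 and 12.7% in both, and at least 5 in replicate 8 in 0.547%. The shared site lay about 6.0 kb after the gene start and so beyond the end of this gene of 1.93 kb, between JUND and IQCN. Its score was 14.4 at 18386008 in replicate 8 and 26.0 at 18386043 in replicate 9, at the 71.8 and 80.3 percentiles. The other 4 replicate 8 summits had scores of 2.04 to 3.94, all at or below the 16.7 percentile. Of them, 2 lay in the gene, at 18390795 and 18391436, with scores of 3.92 and 2.04. The highest, at 18395701, lay 3.7 kb before it.

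The Jun family together had 15 summits in replicate 8 and 3 in replicate 9, or 22.4 and 4.48 per 100 kb, with 2 sites shared. Both of these sites lay kilobases away from the gene that named the window.

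ATF3, a stress-induced partner of Jun proteins that often represses transcription, had 7 summits in replicate 8 and 2 in replicate 9 in a window from 212729 to 212804 kb of chromosome 1. Windows of 75 kb held at least 1 summit in 41.7% of cases in replicate 8, 33.3% in replicate 9 and 31.8% in both. Both replicate 9 summits were shared. One site lay about 28.4 kb into the gene, far from any exon of the MANE Select transcript (the one reference transcript agreed on by Ensembl and RefSeq). Its summits were 2 bp apart, at 212767389 and 212767387, with scores of 8.96 and 9.59 at the 53.9 and 47.1 percentiles. The other lay about 64.7 kb from the start, beyond the gene's end, at 212803744 with a score of 3.63 in replicate 8 and at 212803761 with a score of 14.4 in replicate 9. Its percentile differed the most of all 8 shared sites, 11.6 against 61.8, and it lay 0.257 kb from the window's edge in replicate 8.

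ATF3 has several annotated starts, of which that of the MANE Select transcript lies 43.4 kb from the RefSeq start of the gene. Replicate 8 had 2 summits placed within 1 kb of it, at 212781432 with a score of 7.31 and at 212782162 with a score of 4.33. The nearest replicate 9 summits were 14.0 and 14.8 kb away. The strongest ATF3 summit of replicate 8, with a score of 13.1 at 212740473, lay about 1.5 kb after the first start and 20.9 kb from any replicate 9 summit. This was also the highest score of a summit found in 1 library alone at any AP-1 gene. Next to it came the FOS summit, at 12.9, and a further ATF3 summit at 212732236, about 6.8 kb before the first start, at 12.6.

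**Figure D3:**
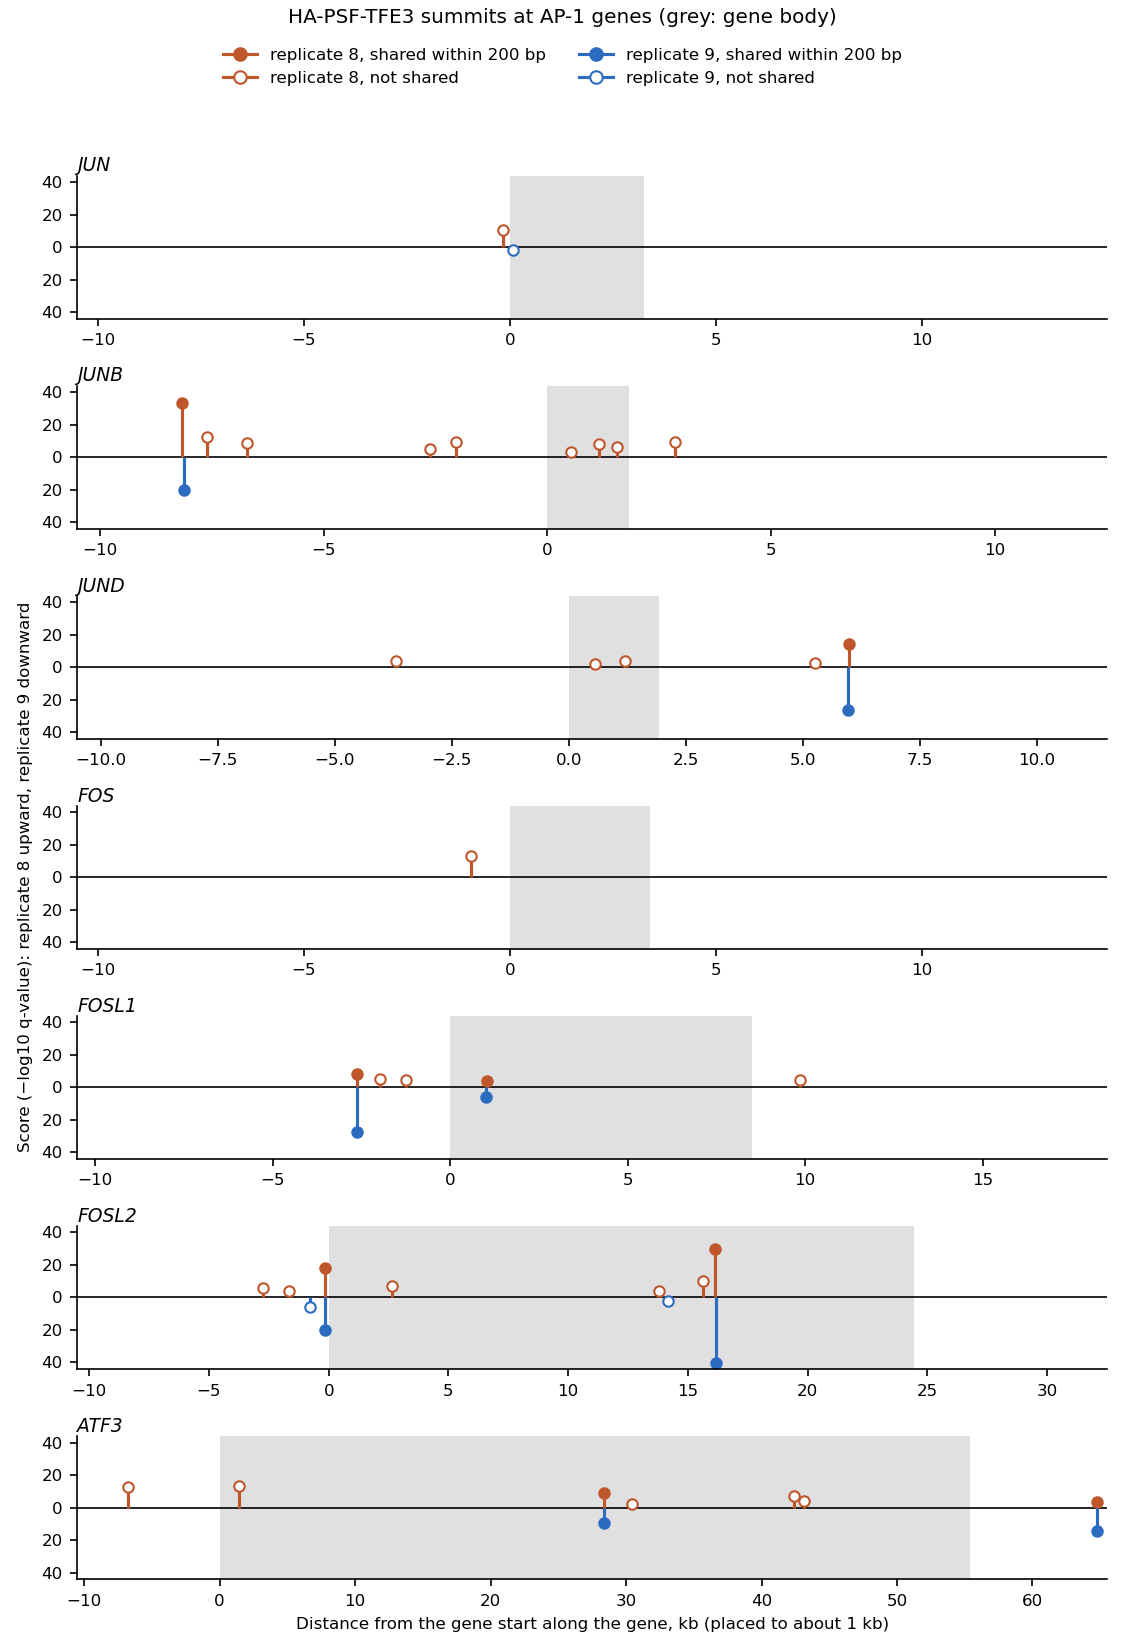
Score (−log10 q-value) of each summit by distance from the gene start along the gene (horizontal axis, kb, placed to about 1 kb), with replicate 8 drawn upward in orange and replicate 9 downward in blue. Filled circles are summits shared within 200 bp and grey marks the gene body. FOSL2 has tall filled stems in both libraries, up to 30.1 and 40.6, JUNB has open stems in replicate 8 alone next to 1 shared site, and FOS has 1 open stem of 12.9.

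By place, 5 replicate 8 summits lay within 1 kb of a gene start, 12 farther before it, 13 farther inside a gene and 5 beyond a gene's end. In replicate 9 these counts were 3, 2, 4 and 2. All of these counts are approximate, since places are good to about 1 kb and the limit is 1 kb. Starts here are those of RefSeq, so the 2 ATF3 summits near the MANE Select start count as inside the gene. Of the shared sites, that of FOSL2 at 0.2 kb came closest to the start of the gene that names its window, followed by that of FOSL1 at about 1.0 kb, which the precision of 1 kb does not place on either side of that limit.

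The scores at AP-1 genes were middling in their lists. The median percentile was 45.0 over the 35 summits in replicate 8 and 61.8 over the 11 in replicate 9, and a whole list has a median of 50 by construction. The highest percentiles were 94.4 at JUNB in replicate 8 and 90.7 at FOSL2 in replicate 9, and the lowest were 0.925 at JUND and 0.547 at JUN. Ranked by the worse of their 2 ranks, the shared sites began with FOSL2 inside the gene (3156), followed by JUNB (7683), FOSL2 at the start (9262), JUND (12658), ATF3 inside the gene (20725), FOSL1 before the gene (22653), FOSL1 inside the gene (38190) and ATF3 beyond the gene (39744).

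**Figure D4:**
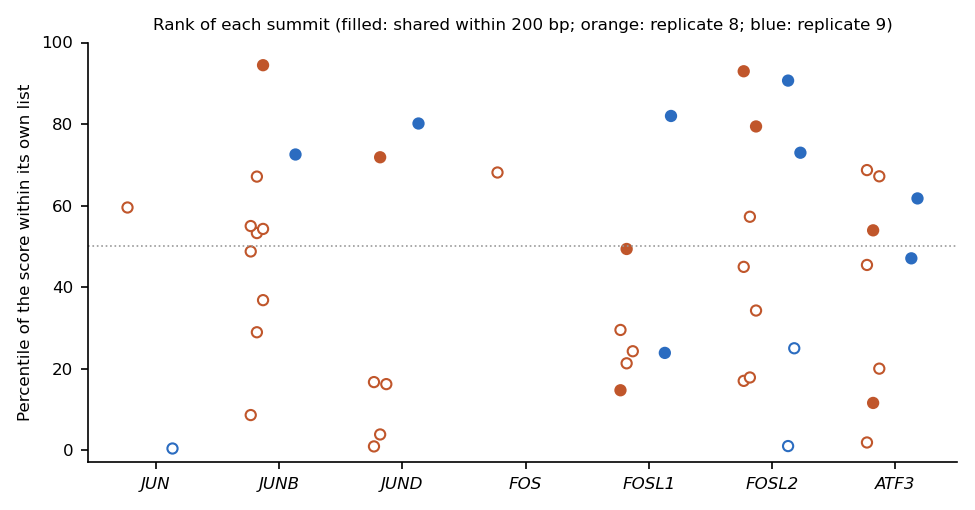
Percentile of each summit's score within its own list (vertical axis) by gene, for replicate 8 in orange and replicate 9 in blue, with shared summits filled and the 50 percentile dotted. Filled points reach 94.4 at JUNB and 92.9 at FOSL2, whereas open points of replicate 8 stay at or below 68.7.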

How the data were processed

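HA-PSF-TFE3 ChIP-seq of doxycycline-induced HK-2 cells was represented by 2 ChIP libraries and 1 input library, grouped by their labels. MACS2 was run by the authors on each ChIP library with input as the background, without pooling. The deposited score is the −log10 q-value of a summit and is not normalised between libraries. The study states the cutoff as a q-value of 0.05 in one place and as a p-value in another. The lowest scores were 1.373 in replicate 8 and 1.335 in replicate 9, just above the 1.3 of a q-value of 0.05. A filter on fold enrichment is stated as well. The study's statements of the build (hg19, hg38) and the aligner (bwa, bowtie2) also differ. In these lists 364 and 262 summits had positions past the end of their hg38 chromosome, so hg19, named in the submitters' processing notes, was taken. The reference genome was GRCh38, so sequence under summits and windows for further AP-1 or upstream genes are not analysed here, and only lengths, strands, neighbours and promoter sequences came from it (GENCODE v44 and RefSeq). Places in genes are inferred from the windows.

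The 7 windows, the lists and the alternatives were chosen with earlier results of these data known. All 7 members are named, each with its best-ranked shared site and the highest summit found in 1 library alone. Distances were computed on the same chromosome and checked on simulated lists against an exhaustive search. Percentiles use mean ranks for ties. Background windows were laid end to end from the first base of each chromosome to its last summit, in the widths of the members. Depth is not in the lists, so no precision from depth is given. The study states total reads for both ChIP libraries, with slightly more in replicate 8. Alternatives changed the minimum score, merged near summits, equalised list lengths, changed the windows or the distance, or left out a replicate. Python 3.11.15, numpy 2.4.6, pandas 2.3.3, scipy 1.17.1 and matplotlib 3.10.9 were used.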

Additional observations from a re-analysis of the deposited data

How the results depend on the processing

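Of 56 alternative values, 42 stayed within 1.5 times a count or within the 95% interval of a share, density or median, and 14 did not. The number of replicate 8 summits fell from 35 to 22 with a minimum score of 5, to 9 with a minimum of 10 and to 18 with equal numbers of summits, and its density per 100 kb to 9.32 and 3.81 with the same minimum scores, as follows from fewer summits. In replicate 9 the count was 6 with a minimum score of 10 and 23 with windows widened by 10 kb at each end. The replicate 8 share of shared summits rose to 44.4% with a minimum score of 10, and the replicate 9 share to 90.9% when 500 bp was allowed. The number of genes with a shared summit was 5, and 3 with a minimum score of 10. Each library alone gave 11 to 35 summits, or 4.66 to 14.8 per 100 kb. Leaving out the JUNB window was added after the data were seen. No paired analysis was possible because there is only 1 group with summit lists. Depth is not in the lists, and a site missing from one cannot be called unbound.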

Other observations

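Summits continued around the windows. In the 10 kb on both sides of all 7 windows there were 16 summits in replicate 8 and 12 in replicate 9, or 11.4 and 8.57 per 100 kb, and in the 100 kb on both sides 81 and 54, or 5.79 and 3.86 per 100 kb. The libraries thus differed less there, in number, than within the windows, where replicate 8 had 35 summits and replicate 9 had 11. The flank with the most summits was that before JUND, with 25 and 12 in 100 kb. Its nearest replicate 9 summit lay 2.33 kb beyond the window at 18404328, with a score of 42.1, above that of every summit inside an AP-1 window.

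At JUN, the nearest summits past the low end of the window, on the side of the gene's 3′ end, were 14.6 kb away with a score of 41.8 in replicate 8 and 14.8 kb away with a score of 56.4 in replicate 9. These are higher than the scores of 10.3 and 1.92 inside the window. At FOS, replicate 8 had 3 summits and replicate 9 had 1 in the 100 kb on both sides.

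The gap between libraries was set beside that of the other grid windows of the same width with at least as many replicate 8 summits, leaving out those that overlapped the gene's own window. For JUNB, 0 of 38 windows had as few replicate 9 summits as its 1. The share with at most the gene's own replicate 9 count was 7.94% of 1121 windows for ATF3, 10.3% of 794 for JUND, 28% of 1116 for FOSL1, 31.3% of 26283 for FOS, 40.7% of 535 for FOSL2 and 78.1% of 26284 for JUN. These shares were computed after the counts were seen, and are given as a description.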
